A study of Homo sapiens with 4 samples.

Results

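The genes described here encode the kinetochore, the spindle assembly checkpoint, the mitotic kinases and the spindle motors. They are 38 genes given by symbol, of 69222 gene identifiers in the count files. All 38 were found, each under 1 identifier, and all 38 were among the 20319 genes with enough counts to be tested. The list is one of function, and no value of these libraries enters its rule.

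The samples were cultures of HEK293T, an established line of human embryonic kidney origin in which SV40 large T antigen is expressed. One group of 2 libraries came from cells given a lentivirus with a short hairpin RNA against RPRD1B (shRPRD1B). The other group of 2 libraries came from cells given a lentivirus with a control hairpin (shCtrl). Poly(A) RNA was sequenced, and the values are read counts per gene, with 54722140 and 65572391 counts in the shRPRD1B libraries and 47732913 and 48494258 in the shCtrl libraries. Both groups are 1 established line, no time after transduction is given in the labels, and the labels do not say whether both shRPRD1B libraries carried the same hairpin. They also do not say that replicates were separate cultures, so a p-value here measures only how far these samples differ, and that spread may be technical.

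The kinetochore is the protein structure that joins a chromosome to spindle microtubules. It is built on centromeric nucleosomes that contain the histone variant CENP-A, and it reaches the microtubule through the NDC80 complex. The spindle assembly checkpoint holds back anaphase until every kinetochore is attached, by keeping CDC20 from activating the anaphase-promoting complex. Aurora B, PLK1 and other kinases correct faulty attachments and drive the steps of mitosis. In dividing cells most of these transcripts are made in the G2 and M phases, and many of their promoters hold a CHR element, usually written TTTGAA, often with CCAAT boxes nearby. The CHR is bound by MuvB complexes (DREAM, B-MYB-MuvB and FOXM1-MuvB) and the CCAAT box by NF-Y. The series title links RPRD1B, a protein that binds the phosphorylated tail of RNA polymerase II, to polyadenylation of cell cycle transcripts. The comparison here addresses how much polyadenylated RNA of the mitotic genes there was with less RPRD1B.

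The promoters of 6 members are shown because they hold both elements within the 120 bases upstream of the start and belong to genes whose values are given in full. RefSeq's promoter table (GRCh38.p14) held 30 of the 38 members, in 33 windows of 300 bases each. Below are the 120 bases just upstream of the start given there, in the direction of transcription. Capitals mark TTTGAA and CCAAT, or their reverse complements TTCAAA and ATTGG. In CDCA8 the last base of TTTGAA is also the first base of an ATTGG.
CDCA8, chr1:37692396-37692515, + strand: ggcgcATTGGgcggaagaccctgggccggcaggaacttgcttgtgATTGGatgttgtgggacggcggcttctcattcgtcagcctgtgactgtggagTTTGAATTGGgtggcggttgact
CDC20, chr1:43358861-43358980, + strand: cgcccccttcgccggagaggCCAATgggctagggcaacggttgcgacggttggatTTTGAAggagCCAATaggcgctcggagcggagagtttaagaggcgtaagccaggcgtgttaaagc
HJURP, chr2:233854536-233854655, - strand: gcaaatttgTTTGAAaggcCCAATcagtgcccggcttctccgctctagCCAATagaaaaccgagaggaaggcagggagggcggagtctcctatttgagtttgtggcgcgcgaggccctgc
CENPC, chr4:67545504-67545623, - strand: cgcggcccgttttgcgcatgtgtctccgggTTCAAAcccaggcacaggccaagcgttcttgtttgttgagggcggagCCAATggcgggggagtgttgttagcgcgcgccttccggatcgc
KIF11, chr10:92593010-92593129, + strand: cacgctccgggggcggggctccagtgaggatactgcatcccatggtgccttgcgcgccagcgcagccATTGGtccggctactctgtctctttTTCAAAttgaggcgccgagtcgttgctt
PLK1, chr16:23678769-23678888, + strand: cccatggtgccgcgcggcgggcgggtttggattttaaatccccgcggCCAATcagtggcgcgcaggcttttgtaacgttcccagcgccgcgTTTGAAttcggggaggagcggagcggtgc

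Across the 300-base windows, searched on both strands, TTTGAA occurred in 20 of 33 member windows (60.6%), against 15.2% of all 35116 promoter windows. CCAAT occurred in 25 of 33 (75.8%), against 34.6% of all windows, and the combination of both in 16 of 33 (48.5%), against 5.90%. The other CHR spellings were less frequent, with TTTAAA in 6 of 33 windows (12.2% of all windows) and TTCGAA in 2 of 33 (1.45%). Of the E2F-like words, TTCCCGC occurred in 5 of 33 windows (6.55% of all windows). The word TTGGCGC occurred in 3 of 33 (3.04%) and the word TTCGCGC in 2 of 33 (2.24%). A match of letters is a description and not a bound site. These shares describe the genes and carry no information on the hairpins.

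The hairpin's target was checked first. RPRD1B stood at 27.2 and 35.5 CPM (counts scaled to library size) in the shRPRD1B libraries and at 50.4 and 50.1 CPM in the shCtrl libraries. The groups did not overlap. The target had a log2 fold change of -0.68 ± 0.16 (SE), with an edgeR quasi-likelihood p of 0.00587 and a Benjamini-Hochberg adjusted p of 0.448 over all 20319 genes. DESeq2 called it lower, with an adjusted p of 0.0467, and limma voom gave 0.49. The remaining RPRD1B level was higher in shRPRD1B 2 than in shRPRD1B 1. Genes reported for HEK293 lines (PAX2, LHX1, LIN28B, NEFL, NEFM and VIM) summed to 522 and 437 CPM in shRPRD1B libraries 1 and 2, and to 513 and 503 CPM in shCtrl. Markers of other cell types had lower sums. Fibroblast genes summed to 24.1 to 26.6 CPM in shRPRD1B and 35.2 to 39.5 CPM in shCtrl, with COL1A2 at 0 counts in every library. Leukocyte genes summed to 2.63 to 4.18 CPM in shRPRD1B and 4.18 to 4.19 CPM in shCtrl, and epithelial genes to 58.5 to 84.6 CPM in shRPRD1B and 89.2 to 92.8 CPM in shCtrl, with KRT19 at 0 counts everywhere. Single genes did not all keep the order of the sums. Epithelial KRT18 had 48.35 to 58.65 CPM over the libraries, above PAX2 (5.82 to 11.4 CPM) and LHX1 (0.201 to 0.349 CPM). Neuronal genes summed to 29.9 to 36.9 CPM in shRPRD1B and 20.7 to 21.0 CPM in shCtrl, and all 5 tested of 6 listed were higher in both knockdown libraries than in both controls, as were 20.3% of all genes, and 3 were so at an unadjusted edgeR p under 0.05. By the same threshold 2 of 5 tested fibroblast genes (LUM and COL1A1) were lower and 0 of 4 tested epithelial genes were called, although all 4 had fitted values below 0. At that threshold 3.55% of all tested genes were higher and 3.94% lower. The part of these marker levels in the results below was not tested.

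No kinetochore, checkpoint or mitotic kinase gene passed the test for a difference between shRPRD1B and shCtrl cells. With edgeR's quasi-likelihood test 0 of the 38 members passed an adjusted p of 0.05, where 0.0689% of all tested genes did. DESeq2, which called 1.18% of all genes, and limma voom, which called 0 genes, also called 0 members. At an unadjusted edgeR p under 0.05, 2 members were higher (CENPC and CDCA8) and 1 was lower (CENPM) in shRPRD1B. Among all tested genes 3.55% were higher and 3.94% lower by that rule, so these 3 members are about as many as the background gives. The smallest adjusted p of any member was 0.649, that of CENPM. The count of 0 rested on having both knockdown libraries: without shRPRD1B 1 edgeR called 19 members (16 higher, 3 lower) and 29.1% of all genes, and without shRPRD1B 2 it called 7 (3 higher, 4 lower) and 10.4%.

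The fold changes of the members were small as well as uncalled. Their median log2 fold change was 0.07, against 0.00 for all tested genes and 0.03 for the 8966 tested genes of at least 16 CPM. It ranged from -0.36 for CENPN to 0.35 for CDCA8, and 33 of the 38 lay within 0.25 of 0. Fitted values were above 0 for 23 members and below 0 for 15, against 50.5% of all tested genes and 56.2% of those of at least 16 CPM above 0. The SEs lay between 0.10 and 0.27, and for all 38 members the 95% interval lay inside a 2-fold change in either direction. The lowest bound was -0.78 (SPC25) and the highest 0.77 (KNL1). The interval held 0 for 35 members, all but CDCA8, CENPC and CENPM. In bulk RNA a different share of cells in mitosis and a different amount of transcript per mitotic cell cannot be told apart.

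**Figure D1:**
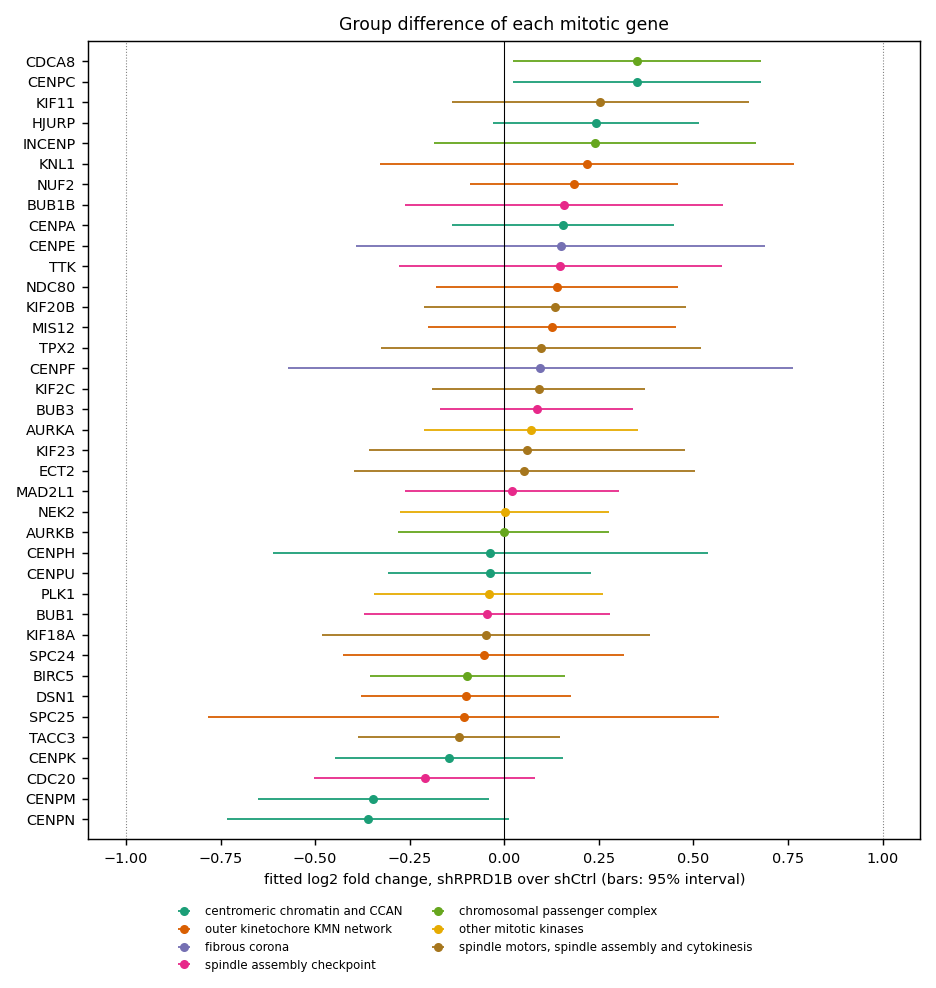
Fitted log2 fold change of each of the 38 mitotic genes, shRPRD1B over shCtrl, with its 95% interval from edgeR's quasi-likelihood fit (2 libraries per group), coloured by role. Dotted lines mark a 2-fold change. All 38 intervals lie inside those lines, and 35 of them hold 0.

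The 2 knockdown libraries did not place these genes alike. In shRPRD1B 1 the median log2 ratio of the 38 members to the shCtrl mean was -0.05, with 14 members above 0. In shRPRD1B 2 it was 0.14, with 26 members above 0. The median over all tested genes was 0.00 in each library. Both ratios use the same shCtrl libraries. shRPRD1B 1 lay above both shCtrl libraries for 13 members and below both for 20, where 38.6% and 38.5% of all tested genes lay so. shRPRD1B 2 lay above both for 25 members and below both for 12, where the shares over all genes were 41.7% and 42.5%. Among genes of at least 16 CPM, the levels at which nearly all members lie, these shares were 41.9% and 40.2% for shRPRD1B 1 and 51.6% and 40.4% for shRPRD1B 2. Set directly against each other, shRPRD1B 2 was higher than shRPRD1B 1 for 28 of 38 members, against 49.6% of all genes and 55.6% of those of at least 16 CPM, by a median log2 difference of 0.18. With 1 library on each side, these library differences have no test.

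Sorted by these positions, the members spread over several arrangements. Both knockdown libraries lay above both controls for 9 members (CENPA, HJURP, CENPC, NDC80, NUF2, MIS12, BUB3, CDCA8 and KIF11), where the share over all genes was 20.3%. Both lay below for 8 (CENPK, CENPM, CENPN, CENPU, DSN1, CDC20, BIRC5 and TACC3), where the share was 20.6%. For 12 members shRPRD1B 1 lay below both controls and shRPRD1B 2 above both, as it did for 13.3% of all genes and 18.6% of those of at least 16 CPM. These were KNL1, CENPE, CENPF, BUB1, BUB1B, TTK, PLK1, NEK2, TPX2, KIF18A, KIF23 and ECT2. The opposite arrangement held for 4 members (CENPH, SPC24, SPC25 and MAD2L1) and 13.5% of all genes. In the remaining 5 (AURKA, AURKB, INCENP, KIF2C and KIF20B) shRPRD1B 1 lay between the controls. The shRPRD1B pair was further apart than the shCtrl pair for 34 of the 38 members, and for 72.5% of all tested genes.

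**Figure D2:**
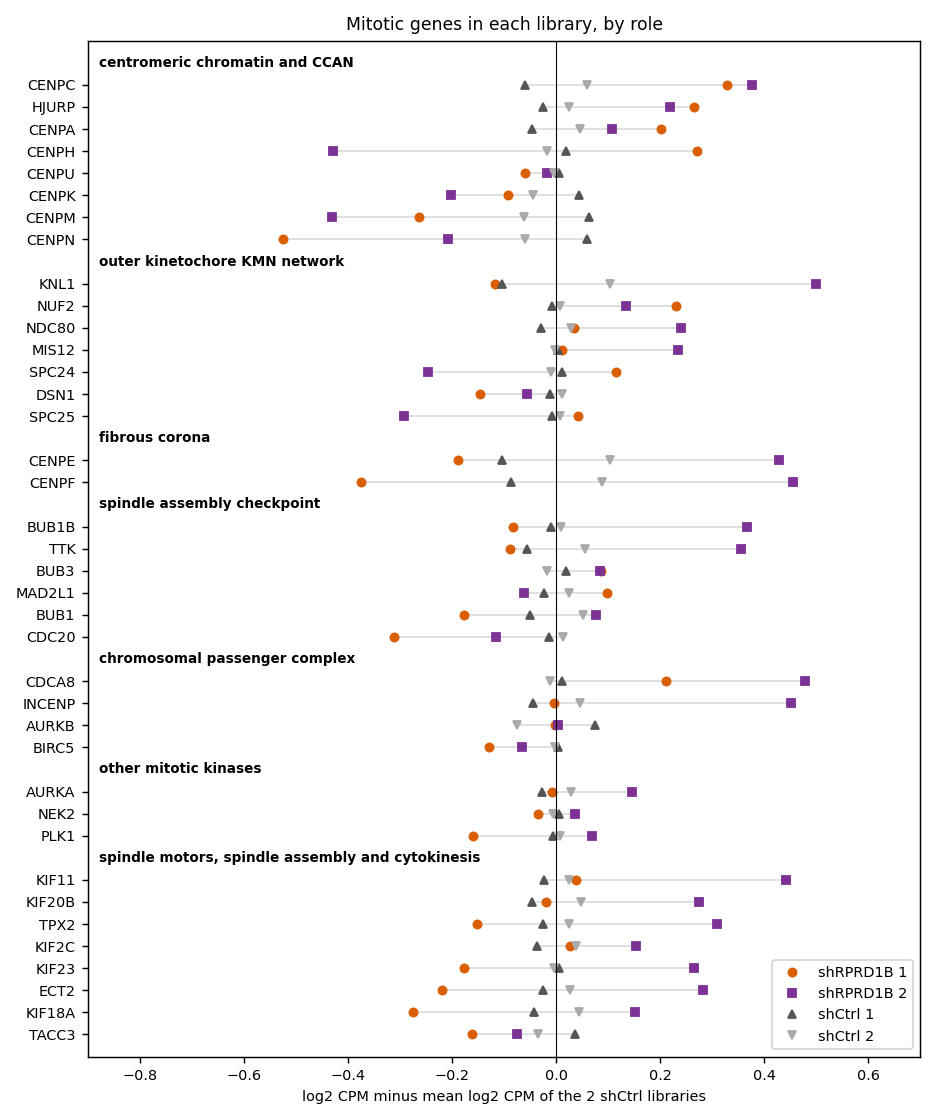
Level of each of the 38 mitotic genes in each library, as log2 CPM minus the mean log2 CPM of the 2 shCtrl libraries, grouped by role. Orange circles (shRPRD1B 1) and purple squares (shRPRD1B 2) often stand on opposite sides of the grey control triangles, as for CENPF and CENPE.

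Levels between genes were compared per length, in TPM (counts divided by transcript length and rescaled to the same total in each library) averaged over the 4 libraries. On that scale the members ranged from 2.72 (SPC25) to 307 (CDC20), with a median of 69.3. CDC20 was followed by AURKB at 266, BIRC5 at 219, PLK1 at 218 and TACC3 at 208. At the low end SPC25 was followed by CENPC at 7.22 and KNL1 at 13.2. These values use the longest annotated coding transcript of each gene, which need not be the one expressed. SPC25 had only 1.72 and 1.37 CPM in shRPRD1B and 1.67 and 1.68 CPM in shCtrl, while its partner SPC24 had 98.0 and 76.3 CPM in shRPRD1B and 91.3 and 89.9 CPM in shCtrl. SPC24 and SPC25 form a dimer within the NDC80 complex. Some genes used in every cell also have very few counts in these files. Picked after their values were seen, TUBB (beta-tubulin) had 0.504 and 0.493 CPM in shRPRD1B and 0.359 and 0.349 CPM in shCtrl, and POLR2A (the largest RNA polymerase II subunit) 1.04 and 1.28 CPM in shRPRD1B and 1.37 and 0.760 CPM in shCtrl. The count of SPC25 may likewise not reflect its transcript level, and this was not tested.

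At the centromere, the CENP-A nucleosome and the proteins bound to it had values on both sides of the controls. CENPC, which links CENP-A nucleosomes to the outer kinetochore, had 24.0 and 24.8 CPM in shRPRD1B and 18.4 and 19.95 CPM in shCtrl. Both knockdown libraries were higher and close to each other, with a log2 fold change of 0.35 ± 0.13 (SE) and an edgeR adjusted p of 0.66. HJURP, the chaperone that deposits CENP-A, had 65.8 and 63.8 CPM in shRPRD1B and 53.9 and 55.7 CPM in shCtrl (log2 fold change 0.24 ± 0.11, edgeR adjusted p = 0.685). CENPA itself had 46.4 and 43.4 CPM in shRPRD1B and 39.1 and 41.6 CPM in shCtrl, also without overlap.

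Other subunits of the constitutive centromere-associated network, the CCAN, stood lower. CENPM (chromosome 22, 41938721 to 41947164 in GRCh38) had 74.0 and 65.9 CPM in shRPRD1B and 92.7 and 85.0 CPM in shCtrl. Its knockdown libraries were both below its controls (log2 fold change -0.35 ± 0.12, edgeR adjusted p = 0.649). CENPN, which reads the CENP-A nucleosome directly, had 31.7 and 39.5 CPM in shRPRD1B and 47.5 and 43.8 CPM in shCtrl (-0.36 ± 0.15, edgeR adjusted p = 0.677). In GENCODE 29, 22.8% of CENPN's exon bases overlap other genes on the opposite strand, and the strand setting of the counting is not given, so its count is uncertain. The same holds for PLK1 (12.5% of exon bases), CENPU (11.7%) and MIS12 (9.53%), which overlap genes on the opposite strand, and for BUB1B (10.2%) and CENPA (6.96%), which overlap genes on the same strand. The other lower subunits were CENPK, at 36.7 and 34.0 CPM in shRPRD1B and 40.4 and 37.95 CPM in shCtrl, and CENPU, at 64.4 and 66.4 CPM in shRPRD1B and 67.4 and 67.0 CPM in shCtrl.

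CENPH gave the widest gap between knockdown libraries in that direction. It had 74.3 and 45.8 CPM in shRPRD1B and 62.4 and 60.8 CPM in shCtrl, so that shRPRD1B 1 stood above the controls and shRPRD1B 2 below them. CENPH and CENPK bind each other in the CCAN, and CENPK showed no such gap. Over the 8 centromere and CCAN genes 3 fitted values were above 0 and 5 below, with a median of -0.04.

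The outer kinetochore is the KMN network, made of KNL1, the MIS12 complex and the NDC80 complex. NUF2 and NDC80 form the microtubule-binding end. NUF2 had 75.0 and 70.1 CPM in shRPRD1B and 63.6 and 64.2 CPM in shCtrl, and NDC80 had 40.9 and 47.2 CPM in shRPRD1B and 39.2 and 40.8 CPM in shCtrl. Neither overlapped its controls, although shRPRD1B 1 exceeded the higher control by little for NDC80. MIS12 had 35.7 and 41.7 CPM in shRPRD1B and 35.5 and 35.4 CPM in shCtrl, and DSN1, of the same complex, 54.8 and 58.4 CPM in shRPRD1B and 60.2 and 61.2 CPM in shCtrl. Over the 7 KMN genes 4 fitted values were above 0 and 3 below, with a median of 0.13.

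KNL1, the scaffold that recruits the BUB proteins, had the largest fitted value of the KMN genes and a wide spread. It had 46.4 and 71.2 CPM in shRPRD1B and 46.9 and 54.1 CPM in shCtrl (log2 fold change 0.22 ± 0.22, edgeR adjusted p = 0.807). shRPRD1B 2 stood well above the controls and shRPRD1B 1 just below the lower one. SPC25 had the smallest fitted value there (-0.11 ± 0.27, edgeR adjusted p = 0.93).

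The fibrous corona, the outermost layer that captures microtubules laterally, showed the widest library difference of any role. CENPF, a large coiled-coil protein (chromosome 1, 214603195 to 214664588 in GRCh38), had 189 and 337 CPM in shRPRD1B and 231 and 261 CPM in shCtrl. shRPRD1B 1 was the lowest of the libraries and shRPRD1B 2 the highest. The group difference was 0.10 ± 0.27 (edgeR adjusted p = 0.936), and the difference between the knockdown libraries was 0.83 on the log2 scale. CENPE, the kinesin that moves chromosomes towards the spindle equator, had 82.1 and 126 CPM in shRPRD1B and 87.0 and 100.5 CPM in shCtrl (0.15 ± 0.22, edgeR adjusted p = 0.865). Its knockdown libraries also enclosed both controls.

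Among the checkpoint genes, CDC20, the activator that the checkpoint holds back, was below the controls in both knockdown libraries before any length correction, and in shRPRD1B 1 alone after it. It had 206 and 236 CPM in shRPRD1B and 253 and 258 CPM in shCtrl (log2 fold change -0.21 ± 0.12, edgeR adjusted p = 0.715). BUB1B encodes BUBR1, a subunit of the complex that inhibits CDC20. It had 73.3 and 100.1 CPM in shRPRD1B and 77.1 and 78.2 CPM in shCtrl (0.16 ± 0.17, edgeR adjusted p = 0.814), with the knockdown libraries on either side of the controls.

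TTK encodes MPS1, the kinase that starts checkpoint signalling. It followed the same pattern as BUB1B, at 65.9 and 89.6 CPM in shRPRD1B and 67.4 and 72.8 CPM in shCtrl. BUB1, the kinase that marks centromeric chromatin, had 148 and 177 CPM in shRPRD1B and 162 and 173 CPM in shCtrl. BUB3, the partner of BUB1 and BUBR1, was nearly level at 271.1 and 270.7 CPM in shRPRD1B and 259 and 252 CPM in shCtrl. MAD2L1 encodes MAD2, which captures CDC20, and had 181 and 162 CPM in shRPRD1B and 166 and 172 CPM in shCtrl. Of these 6 genes 4 had fitted values above 0 and 2 below, with a median of 0.05.

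The chromosomal passenger complex combines the kinase Aurora B with INCENP, survivin (BIRC5) and borealin (CDCA8). CDCA8 (chromosome 1, 37692418 to 37709719 in GRCh38) had 90.7 and 109 CPM in shRPRD1B and 78.9 and 77.7 CPM in shCtrl. Both knockdown libraries were above both controls, by more in shRPRD1B 2 (log2 fold change 0.35 ± 0.13, edgeR adjusted p = 0.66). BIRC5 had 245 and 256 CPM in shRPRD1B and 268 and 267 CPM in shCtrl (-0.10 ± 0.10, edgeR adjusted p = 0.813). INCENP, the scaffold, had 131 and 179.8 CPM in shRPRD1B and 127 and 136 CPM in shCtrl, with only shRPRD1B 2 apart from the controls. AURKB had 145 and 146 CPM in shRPRD1B, both between its 153 and 138 CPM in shCtrl. The members of this complex therefore did not share a direction, with 2 fitted values above 0 and 2 below.

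The other mitotic kinases gave fitted values near 0. PLK1, which acts from mitotic entry to cytokinesis, had 192 and 225 CPM in shRPRD1B and 213 and 215 CPM in shCtrl (log2 fold change -0.04 ± 0.12, edgeR adjusted p = 0.939). AURKA, the kinase of spindle poles, had 126 and 140.5 CPM in shRPRD1B and 125 and 129 CPM in shCtrl (0.07 ± 0.11, edgeR adjusted p = 0.879). NEK2, which separates centrosomes, had 53.2 and 55.9 CPM in shRPRD1B and 54.7 and 54.3 CPM in shCtrl. All 3 had a higher level in shRPRD1B 2 than in shRPRD1B 1.

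The spindle motors and assembly factors were all 8 higher in shRPRD1B 2 than in shRPRD1B 1, with a median log2 difference of 0.41 between the knockdown libraries. KIF11, the kinesin that pushes spindle poles apart, had 143 and 189.9 CPM in shRPRD1B and 137 and 142 CPM in shCtrl (log2 fold change 0.25 ± 0.16, edgeR adjusted p = 0.729). That value rested on shRPRD1B 2, and was 0.04 without it. TPX2, which activates Aurora A, had 211 and 290.3 CPM in shRPRD1B and 230.4 and 238 CPM in shCtrl. ECT2, the exchange factor that starts cytokinesis, had 95.3 and 135 CPM in shRPRD1B and 109 and 113 CPM in shCtrl. KIF23, a subunit of centralspindlin, had 72.2 and 98.2 CPM in shRPRD1B and 82.0 and 81.4 CPM in shCtrl. In the last 3 genes shRPRD1B 1 was the lowest library and shRPRD1B 2 the highest.

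KIF18A, a kinesin that dampens chromosome movements, had 24.9 and 33.4 CPM in shRPRD1B and 29.2 and 31.0 CPM in shCtrl, in the same arrangement. KIF20B, a kinesin of the midzone and midbody, had 74.9 and 91.9 CPM in shRPRD1B and 73.5 and 78.4 CPM in shCtrl. KIF2C, the microtubule-depolymerising kinesin also known as MCAK, had 102 and 111 CPM in shRPRD1B and 97.5 and 103 CPM in shCtrl. TACC3, which stabilises kinetochore fibres, was the one member of the role with both knockdown libraries below the controls. It had 235 and 249.2 CPM in shRPRD1B and 269 and 256 CPM in shCtrl (-0.12 ± 0.11, edgeR adjusted p = 0.787). Over the role 6 fitted values were above 0 and 2 below, with a median of 0.08.

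Transcript length moved with the difference between the knockdown libraries. Over the 38 members the log2 length of 1 transcript per gene and the log2 difference shRPRD1B 2 minus shRPRD1B 1 had a Pearson r of 0.65 and a Spearman rho of 0.65. These are correlations across genes of the same libraries and not across replicates. Over the 14412 tested genes with a length and at least 1 CPM the values were 0.27 and 0.35. The shCtrl pair showed the same relation at a smaller scale, with r = 0.69 and rho = 0.60 over the members and 0.14 and 0.30 over all genes. The spread over the members behind it was an SD of 0.30 for the shRPRD1B pair and 0.08 for the shCtrl pair. GC content of the transcript went the other way, with r = -0.17 over the members and -0.33 over all genes for the shRPRD1B pair. Length also moved with the fitted log2 fold change between the groups. There r was 0.51 and rho 0.495 over the members, and 0.20 and 0.29 over all genes. For GC content and the fitted log2 fold change, r was -0.32 over the members and -0.07 over all genes.

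By length, the 7 members of 5000 bases or more had a median ratio to the controls of -0.02 in shRPRD1B 1 and 0.38 in shRPRD1B 2. The 17 members under 2500 bases had medians of -0.01 and -0.02 in the same libraries. Over all genes the medians in shRPRD1B 2 were 0.19 at 5000 bases or more and -0.18 under 2500 bases. The 12 members with shRPRD1B 1 below and shRPRD1B 2 above the controls had a median length of 3724 bases, and the 4 members in the opposite arrangement 1852 bases. Long transcripts did not all follow the pattern, where length is that of the longest annotated coding transcript, which need not be the one expressed. BUB3, at 7828 bases, differed by -0.002 on the log2 scale between the knockdown libraries, and CENPC, at 6940 bases, by 0.05. MAD2L1, at 5468 bases the longest in the opposite arrangement, differed by -0.16.

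When length and GC content were corrected for in each library, an alternative added after the data had been seen, the library difference persisted over the members. Their median ratio to the controls was then -0.04 in shRPRD1B 1 and 0.18 in shRPRD1B 2, against 0.00 and 0.04 over all tested genes. After the correction 30 of 38 members were higher in shRPRD1B 2 than in shRPRD1B 1, against 54.0% of all tested genes. Of the tested genes 18958 had a length, and those without one stayed uncorrected in that share. A corrected share for genes of at least 16 CPM was not computed. The gap of CENPF narrowed to corrected ratios of -0.36 and 0.23, where the uncorrected ratios were -0.38 and 0.46. CDCA8 kept 0.20 and 0.54, while CENPM had -0.30 and -0.03, so that its ratio in shRPRD1B 2 was then near 0. Of the 9 members with both knockdown libraries above the controls, BUB3 then had ratios of opposite sign (0.10 and -0.12). Of the 8 with both below, CDC20 (-0.35 and 0.13) and TACC3 (-0.22 and 0.06) did too, and both ratios of CENPU were above 0. What caused the length relation was not tested.

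**Figure D3:**
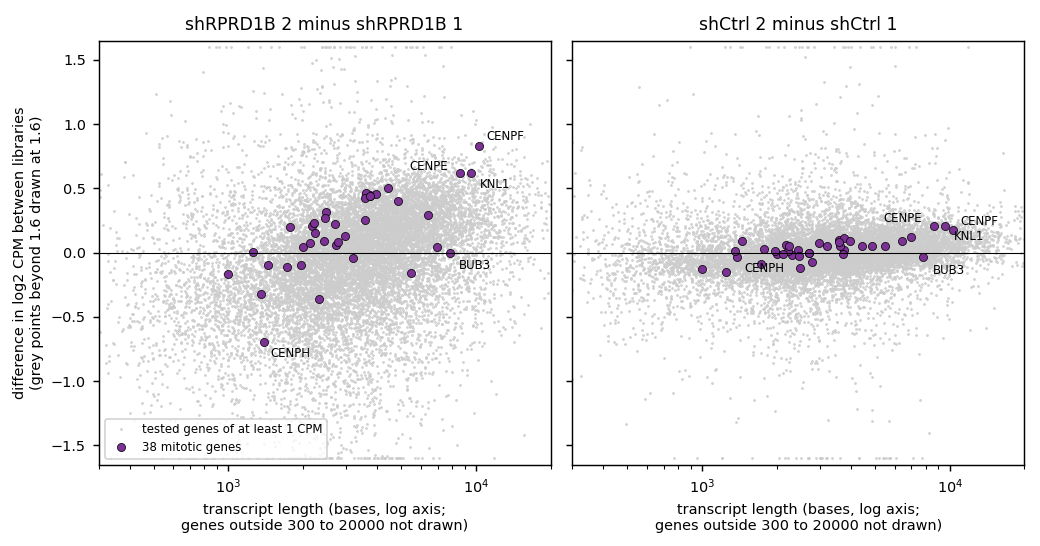
Difference in log2 CPM between the 2 libraries of a group against transcript length, for the 38 mitotic genes (purple) and the tested genes of at least 1 CPM (grey), in the shRPRD1B pair (left) and the shCtrl pair (right). CENPF, CENPE and KNL1, the longest of the members, are the highest members in both panels, over a wider range for shRPRD1B.

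Members whose promoter window held TTTGAA (19 of the 30 genes with a window) had a median log2 fold change of 0.13, and the 11 without it -0.04. For CCAAT the medians were 0.02 with it (23 genes) and 0.14 without it (7 genes). Neither split was tested. Among the 6 promoters printed above, CDCA8, HJURP, CENPC and KIF11 belong to genes with both knockdown libraries above the controls, CDC20 to one with both below, and PLK1 to one whose knockdown libraries lie on either side.

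The rest of the mitotic machinery was described by 6 further lists, which hold other kinetochore genes, checkpoint and anaphase genes, spindle and cytokinesis genes, kinases and phosphatases, condensins and transcription regulators. Of 113 genes listed 111 could be tested, all but OIP5 and SKA1. edgeR's quasi-likelihood test called 0 of the 111 at an adjusted p of 0.05, with 3 higher and 2 lower at an unadjusted p under 0.05. Over all tested genes 3.55% were higher and 3.94% lower at that unadjusted threshold. DESeq2 called 1 of the 111, where it called 1.18% of all genes, and limma voom called 0. Their median log2 fold change was 0.08, with a median ratio of 0.01 in shRPRD1B 1 and 0.15 in shRPRD1B 2. For these genes, as for the members, shRPRD1B 2 was more often the higher knockdown library, in 75 of 111. The share was 49.6% over all genes and 55.6% over those of at least 16 CPM. The lists differed, with 11 of 21 other kinetochore genes, 15 of 25 checkpoint and anaphase genes and 17 of 23 spindle and cytokinesis genes. For kinases and phosphatases it was 13 of 18, for condensins 7 of 8 and for transcription regulators 12 of 16.

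The gene that DESeq2 called was PBK, a mitotic kinase also known as TOPK. It had 26.7 and 26.0 CPM in shRPRD1B and 55.3 and 59.2 CPM in shCtrl. Both knockdown libraries stood well below both controls and close together (log2 fold change -1.12 ± 0.12, edgeR adjusted p = 0.0775, DESeq2 adjusted p = 9.07e-10). Its call under edgeR depended on the setting, as given in the closing part. In the same list WEE1, the kinase that holds CDK1 inactive, had 98.9 and 102.5 CPM in shRPRD1B and 85.9 and 80.4 CPM in shCtrl (0.28 ± 0.11, edgeR adjusted p = 0.665).

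Among the transcription regulators, the DREAM subunit gene RBL2 (p130) had 65.7 and 75.3 CPM in shRPRD1B and 57.3 and 56.1 CPM in shCtrl. TFDP1, the E2F partner, had 148 and 176 CPM in shRPRD1B and 130.3 and 130.6 CPM in shCtrl. Both had knockdown libraries above the controls, with edgeR adjusted p of 0.66 for RBL2 and 0.674 for TFDP1. The list's median log2 fold change was 0.08 over 16 genes, with 1 higher and 0 lower at an unadjusted edgeR p under 0.05. The shares over all tested genes were 3.55% higher and 3.94% lower.

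Genes of smallest p in the condensin and kinetochore lists were as follows. Condensin subunit SMC2 had 132 and 172 CPM in shRPRD1B and 122 and 126 CPM in shCtrl, and NCAPH 115 and 129 CPM in shRPRD1B and 109 and 104 CPM in shCtrl. ZW10, of the complex that brings dynein to kinetochores, had 66.6 and 75.3 CPM in shRPRD1B and 60.3 and 58.9 CPM in shCtrl. In these 3 genes the knockdown libraries were both above the controls, with edgeR adjusted p between 0.694 (ZW10) and 0.725 (NCAPH).

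The anaphase-promoting complex subunit ANAPC4 had 51.3 and 55.2 CPM in shRPRD1B and 44.5 and 42.3 CPM in shCtrl, and ANAPC10 had 4.38 and 4.09 CPM in shRPRD1B and 6.37 and 5.24 CPM in shCtrl. These subunits lay on opposite sides of their controls, with edgeR adjusted p of 0.664 for ANAPC4 and 0.685 for ANAPC10. ARHGEF39 had 46.9 and 46.8 CPM in shRPRD1B and 57.7 and 55.7 CPM in shCtrl (edgeR adjusted p = 0.665). KIFC1, a minus-end kinesin, had 18.3 and 11.5 CPM in shRPRD1B and 4.98 and 0.185 CPM in shCtrl. Its log2 fold change was 2.54 ± 1.02 (edgeR adjusted p = 0.682). Its control libraries stood far apart, while both knockdown libraries were above both, so the size of that change is uncertain.

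Replication genes were set beside the members as a program of an earlier cell cycle phase. The 26 licensing and fork genes had a median log2 fold change of 0.06, close to the 0.07 of the members. edgeR called 0 of them, with 2 higher (RFC3 and LIG1) and 0 lower at an unadjusted p under 0.05. Over all tested genes 3.55% were higher and 3.94% lower by that rule. Both knockdown libraries lay above both controls for 11 of the 26 replication genes and below both for 1, against 9 and 8 of the 38 members. Over all tested genes the shares were 20.3% and 20.6%. The median ratios of the replication genes were 0.08 in shRPRD1B 1 and 0.09 in shRPRD1B 2. The 2 library medians were thus closer to each other there than over the 38 members together. Gaps of opposite sign in single genes cancel in such medians, so they do not give the size of those gaps. The knockdown libraries lay on opposite sides of the controls in 7 of 26 replication genes, 7 of 21 other kinetochore genes and 16 of 38 members. Over all tested genes it was 5441 of 20319. The mitotic lists differed in their medians. The median log2 difference shRPRD1B 2 minus shRPRD1B 1 was 0.04 over the replication genes and 0.004 over the other kinetochore genes. It was -0.07 over the 8 centromere and CCAN members, with CENPH at -0.70 and CENPN at 0.32, and 0.41 over the 8 spindle motors and assembly factors. These roles also differed in transcript length. The motors and assembly factors had 2781 to 6419 bases. Most centromere and CCAN members were under 2500 bases, from 1002 for CENPM, with CENPC the longest at 6940. The part of length in that contrast was not tested. The ratio medians share the control libraries with those of the members, and the difference between the lists was not tested. LIG1, the replicative DNA ligase, had 90.9 and 89.1 CPM in shRPRD1B and 67.9 and 74.1 CPM in shCtrl. RFC3, a subunit of the clamp loader, had 117 and 119.9 CPM in shRPRD1B and 93.9 and 93.6 CPM in shCtrl. These 2 genes had edgeR adjusted p of 0.619 (LIG1) and 0.595 (RFC3).

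**Figure D4:**
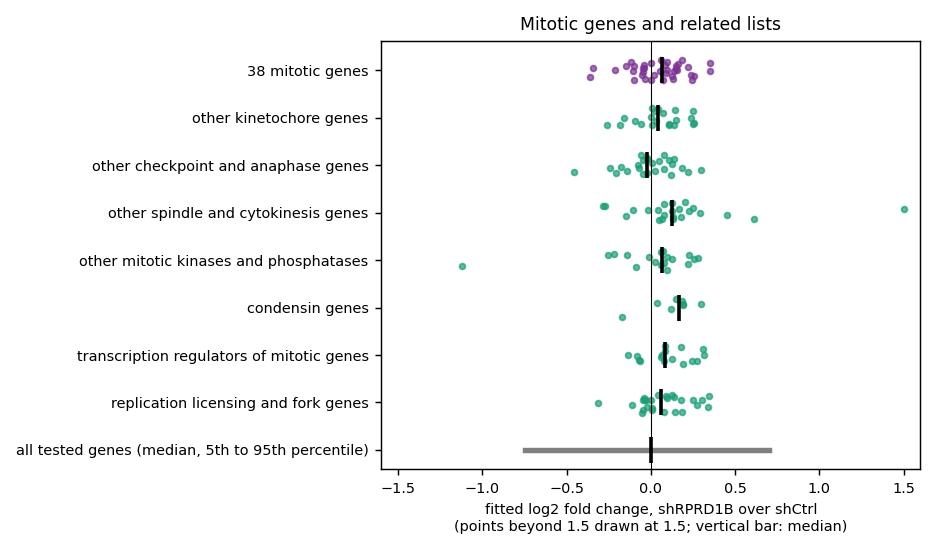
Fitted log2 fold change, shRPRD1B over shCtrl, of the 38 mitotic genes (purple) and of 7 related lists (green), 1 point per tested gene, with vertical bars at the medians and the 5th to 95th percentile of all tested genes in grey. The medians of all lists lie within 0.2 of 0, and PBK (-1.12) and KIFC1 (drawn at the right edge) stand outside the rest.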

How the data were processed

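Each library has 1 deposited file of raw counts by gene. Per the submitters' processing notes, reads were trimmed with Trim Galore, aligned with HISAT2 to hg38 and counted with featureCounts. Tool versions, the annotation release and the way strand and multi-mapped reads were handled were not given in the sources used here. Of 69222 identifiers 62686 matched a symbol.

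The counts were tested with edgeR 4.0.16 in R 4.3.3 (quasi-likelihood fit, robust, TMM factors, filterByExpr with a minimum count of 10, group as the only term). Adjusted p is Benjamini-Hochberg over 20319 genes, called at 0.05. Log2 CPM used a prior count of 2. The fit was tested on simulated data. Alternatives used other scaling factors and filters, the replicate number as a block, each library left out, DESeq2 1.42.0 and limma voom 3.58.1. edgeR's older quasi-likelihood fit, the default of this version, was run first and made 4 higher and 3 lower calls over all genes. The newer fit (legacy=FALSE), which an earlier analysis of these data had used, was then taken for the reported values, a choice made after seeing both; neither fit called a member. A length and GC correction (a spline with 4 degrees of freedom, fitted on genes of at least 1 CPM) was also added after seeing the data. Libraries of 1 group were not duplicates: their counts gave a chi-square over its degrees of freedom of 98.6 in shRPRD1B and 8.97 in shCtrl. Lengths and GC came from GENCODE 29, the longest coding transcript per gene.

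Members and lists were chosen with earlier results of these data known. All members are named. Full statistics go to the highest and lowest member of each role and the 6 of smallest p, and the other lists give up to 2 genes of smallest p each; 1 such gene is not reported here. The length bins were set after the data were seen.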

Additional observations from a re-analysis of the deposited data

How the results depend on the processing

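With groups of 2 and a knockdown pair that varied more than the control pair, small differences of single members could not be resolved, and the count files do not fix a cause for any value below. The reported 6 higher and 8 lower genes became 23 and 17 without a low-count filter, 0 and 0 with at least 5 CPM in 2 libraries, 85 and 56 with the replicate number as a block, 126 and 114 with DESeq2, 0 and 0 with limma voom, 4 and 3 with edgeR's older fit and 21 and 23 with the length and GC correction. Leaving out 1 library gave 12 to 3139 higher and 36 to 3096 lower genes.

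No member was called under any of these settings except without a knockdown library. Further below, members are also counted at an unadjusted p under 0.05, without the share of all genes under the same setting. Those unadjusted counts therefore cannot be read as particular to the members. A fit without a knockdown library gives the lone library the spread of the controls. Here 19 members were called without shRPRD1B 1 (16 higher, 3 lower), where 29.1% of all genes were called, and 7 without shRPRD1B 2 (3 higher, 4 lower), where 10.4% were. HJURP was called higher and CENPM lower in both of these fits, which share the controls, and CENPF and CENPH were each called higher in one and lower in the other. Over the left-out libraries the count of called members ran from 0 to 19. At an unadjusted p under 0.05 the higher members numbered 1 with the replicate block and 0 to 18 over the left-out libraries. The lower members numbered 2 with upper-quartile factors, no filter and the replicate block, 0 with the length and GC correction and 0 to 13 over the left-out libraries.

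The member median changed sign with the knockdown library left out, at 0.14 without shRPRD1B 1 and -0.05 without shRPRD1B 2, and was above 0 under the other settings. Of the other mitotic genes 1 was called with no filter, the replicate block, DESeq2 and the length and GC correction (PBK each time), and 0 to 51 over the left-out libraries, with PBK at an adjusted p of 0.24 without shCtrl 1 and 0.368 without shCtrl 2. Its adjusted p over all settings ran from 9.07e-10 to 0.368.

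Some signs turned. Over the left-out libraries the log2 fold change of CENPF ran from -0.377 to 0.455, CENPE from -0.190 to 0.427, KNL1 from -0.120 to 0.498, BUB1B from -0.080 to 0.368, AURKA from -0.006 to 0.148, PLK1 from -0.158 to 0.070 and SPC25 from -0.290 to 0.043. Without a change of sign, KIF11 ran from 0.040 to 0.444, CDCA8 from 0.214 to 0.481, CDC20 from -0.310 to -0.114 and CENPN from -0.524 to -0.207. With the length and GC correction CDC20 was at -0.091, CENPF at -0.039, PLK1 at 0.043 and SPC25 at 0.005. In that fit CENPM was at -0.163, CENPC at 0.272 and CDCA8 at 0.381, where the main fit gave -0.346, 0.351 and 0.351. Libraries with the same number deviated together only weakly over genes of all kinds (r = 0.15 over 11540 genes). That r was not computed over the members alone. Among the members, the difference of library 2 minus library 1 rose with transcript length in both pairs (r = 0.65 in shRPRD1B and 0.69 in shCtrl). CENPF, CENPE and KNL1 were the highest in both. The labels give the number no meaning, and the block changed no call of a member. The cause of these changes was not tested.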
